A study of Mus musculus with 4 samples.

Results

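The replication-dependent histone genes are the gene copies that supply the bulk of the H1, H2A, H2B, H3 and H4 proteins during DNA synthesis. They were measured here by bulk RNA sequencing of mouse brain microglia, the resident macrophages of the brain, isolated on magnetic beads by the surface protein CD11b. Members were taken by symbol (Hist1h to Hist4h, or the newer names H1f1 to H1f5, H2ac, H2bc, H3c and H4c with a number) if their counts summed to at least 20 over the 4 libraries. Of 49993 gene symbols in the count files, 63 fitted by symbol and 54 reached that sum: 5 genes for linker histone H1, 13 for H2A, 13 for H2B, 11 for H3 and 12 for H4. H2ac1 and H2bc1, the testis forms, and the pseudogene H2ac14 had 0 counts, and 6 others summed to between 1 and 19 counts. Just inside the threshold were H3c15 with 27 counts and H2ac12 with 28, and just outside was H3c14 with 19. All 54 members had at least 1 count in every library.

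All 4 libraries came from mice aged 10 months that carried the APP/PS1 transgenes, a model in which human mutant proteins drive amyloid deposition in the brain. In the group called AD (n = 2) both asrij alleles were wild type, and in the group called AD/KO (n = 2) both were deleted; the deletion is constitutive, so it is not limited to microglia. Asrij, also named Ociad1, is an endosomal protein. No group without the transgenes was analysed here, so the comparison concerns asrij loss on the amyloid background alone. RNA was depleted of ribosomal RNA rather than selected by poly(A) tail, and the libraries were stranded.

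Most messenger RNAs end in a poly(A) tail, but replication-dependent histone messages end just after a short stem-loop that the stem-loop binding protein, Slbp, holds during processing, export, translation and decay. The genes have no introns as a rule, sit in clusters, and are switched on together at entry into S phase through Npat, then their messages are destroyed when DNA synthesis stops. Microglia in the adult brain divide rarely, although they can proliferate around amyloid plaques. A library made by poly(A) selection would miss most of this RNA, whereas ribosomal depletion keeps it.

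The stem-loop was found within the annotated transcripts of 38 of 54 members, 21 to 58 bases past the stop codon, in 8 distinct versions. The most frequent version was shared by 20 members, the next by 6 and the next by 5. Of the 16 members without a match, 14 have an annotated transcript that ends within 50 bases of the stop codon; the others were H2bc4 and H2bc21. The sites below, from GENCODE M21 transcripts on GRCm38, are shown because they mark the class and because each belongs to a member described later. Capitals mark the 16 bases of the stem-loop, whose first and last 6 bases pair with each other; lower case marks the flanks. H1f2 and H2ac18 carry the most frequent version, H3c3 differs from it in the loop, H4c4 in the stem and H2ac20 in the loop. They lie at chr13:23739512-23739527 on the plus strand (H1f2), chr3:96246032-96246047 on the plus strand (H2ac18), chr3:96220418-96220433 on the minus strand (H2ac20), chr13:23745047-23745062 on the minus strand (H3c3) and chr13:23581950-23581965 on the plus strand (H4c4), all in the 3′ UTR.
H1f2: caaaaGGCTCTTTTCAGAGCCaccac
H2ac18: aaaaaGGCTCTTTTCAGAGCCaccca
H2ac20: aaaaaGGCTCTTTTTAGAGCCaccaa
H3c3: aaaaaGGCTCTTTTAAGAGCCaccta
H4c4: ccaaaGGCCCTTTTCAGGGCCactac

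The 54 members lie in 3 clusters of GRCm38: 28 in chr13:23531044-23764412 (here called distal), 17 in chr13:21715711-22043658 (proximal) and 9 in chr3:96219885-96270192. In 47 of 54 members another gene matched over at least 100 bases at 95% identity or more, so reads could have been shared between copies or dropped. The 7 without such a copy were H1f1, H1f2, H1f3, H1f5, H2bc21, H4c4 and H4c14. Single-copy values below are therefore firmer for those 7. Sums by histone type take in reads shared between members of the same type only. They do not settle reads shared across types or with genes outside the members. H1f4 matches H2bc6 at 100% over 450 bases, and H2bc18 matches Gm20628, not a member, at 100% over 381.

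Library totals ran from 13102622 to 19810076 counts, so that 10 counts stood for 0.521 to 0.726 CPM (counts scaled to a library of 1e+06). The deleted gene did not settle the labels. Ociad1 had 691 and 1032 counts in AD replicates 1 and 2 and 746 and 592 in AD/KO replicates 1 and 2. In CPM it stood at 50.2 and 63.4 in AD and at 38.9 and 32.1 in AD/KO. Both AD/KO libraries were thus below both AD libraries, as for 21.7% of all genes tested. A deletion of part of the gene can leave counts elsewhere in it. "AD" and "AD/KO" therefore mean the libraries labelled so throughout. AD replicate 2 stood apart: Xist, the RNA of the inactive X chromosome, had 1391 counts there and 6, 15 and 3 in AD replicate 1 and AD/KO replicates 1 and 2. Comparisons between the groups are given with and without this library; ratios of AD replicate 2 to other libraries describe that library. The labels do not say whether replicates came from separate animals, so p-values measure the spread between these samples only, and with 2 against 2 an exact permutation test cannot go below a two-sided p of 1 in 3.

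Histone RNA was highest in AD replicate 2 for nearly every member. Summed over the 54 members, AD replicates 1 and 2 held 286 and 990.4 CPM, and AD/KO replicates 1 and 2 held 443 and 294 CPM, from 3945, 16113, 8499 and 5426 counts. AD replicate 2 was thus 3.46-fold above AD replicate 1 and 2.90-fold above the mean of the other 3 libraries, while AD replicate 1 and AD/KO replicate 2 were the lowest, with sums within 3% of each other whose order turned without TMM scaling (302 and 274 CPM). AD replicate 2 was the highest library for 45 of the 51 members that passed the filter on low counts, against 14.2% of all genes tested. It was at least 2-fold above each of the other libraries for 30 of 51 members, against 1.96% of all genes. AD replicate 1 was highest for 0 of 51.

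**Figure D1:**
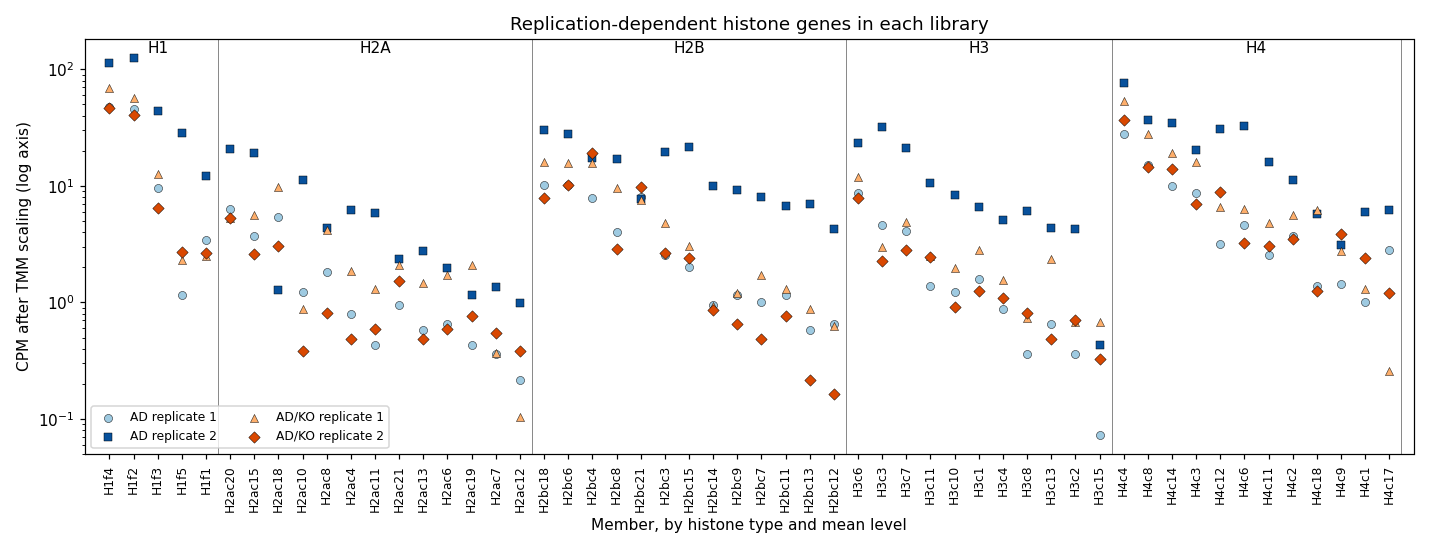
Level of each member in each library, as CPM on a log axis, grouped by histone type and ordered by mean level; each point is 1 library. AD replicate 2 lies above the other 3 libraries for 45 of the 51 tested members.

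AD replicate 2 was the highest library in the sums of all 5 histone types and, under TMM scaling, AD/KO replicate 1 was second; the lowest was AD/KO replicate 2 for H1, H2A and H3 and AD replicate 1 for H2B and H4. H1, the linker histone that binds the nucleosome's entry and exit DNA, summed to 107 and 323 CPM in AD replicates 1 and 2 and to 143 and 98.7 CPM in AD/KO replicates 1 and 2. H2A summed to 22.9 and 79.5 CPM in AD and 36.8 and 17.5 CPM in AD/KO. H2B, its dimer partner, summed to 50.4 and 186 CPM in AD and 79.1 and 58.0 CPM in AD/KO.

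H3 summed to 23.8 and 122 CPM in AD and 33.1 and 21.001 CPM in AD/KO. H4, which pairs with H3 in the core tetramer, summed to 82.2 and 279.7 CPM in AD and 151 and 99.4 CPM in AD/KO. The excess of AD replicate 2 over AD replicate 1 was 3.02-fold for H1, 3.48-fold for H2A, 3.69-fold for H2B, 5.12-fold for H3 and 3.40-fold for H4. H3 thus had the largest ratio of the 5 types; whether the types differ in this ratio was not tested, since it compares 2 libraries.

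**Figure D2:**
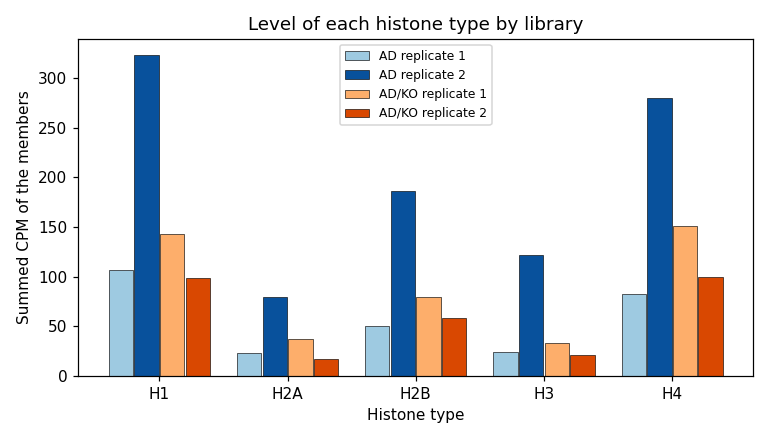
Summed CPM of the members of each histone type, 1 bar per library. For every type AD replicate 2 is the highest bar, and AD replicate 1 lies within or close to the range of the AD/KO libraries.

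Set as groups, the summed level was lower in AD/KO than in AD for all 5 types, by less than the spread within AD. The means were 215 ± 153 CPM in AD and 121 ± 31.4 in AD/KO for H1 (SD, n = 2 each), a log2 ratio of -0.83. They were 51.2 ± 40.1 and 27.1 ± 13.7 CPM for H2A (-0.92), and 118 ± 95.9 and 68.5 ± 14.9 CPM for H2B (-0.79). For H3 they were 72.8 ± 69.4 and 27.0 ± 8.52 CPM (-1.43), and for H4 181 ± 139.6 and 125 ± 36.5 CPM (-0.53). In every type the SD of AD exceeded the difference between the group means.

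The direction turned in all 5 types without AD replicate 2. Against AD replicate 1 alone, the log2 ratio of the AD/KO mean was 0.18 for H1, 0.25 for H2A, 0.44 for H2B, 0.18 for H3 and 0.61 for H4. The lower level of AD/KO thus rested on AD replicate 2.

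Gene by gene, no member passed the test between AD/KO and AD. With edgeR's quasi-likelihood test and Benjamini-Hochberg adjustment over 21439 genes, 0 genes had an adjusted p under 0.05 (0%), and the smallest adjusted p of any gene or member was 0.680. Before adjustment, 1072 genes (5%) had a p under 0.05. Of the 51 members 3 did, H2ac10, H3c3 and H4c17, all lower in AD/KO (2.3% of all genes had such a p and were lower). DESeq2 gave 91 genes under an adjusted p of 0.05 (0.462%) and 0 members, with a smallest adjusted member p of 0.0707. Its unadjusted p was under 0.05 for 15 of 54 members, 0 of them higher in AD/KO. Over all genes it was so for 2458 of 33724, of which 1849 were higher in AD/KO.

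The fitted log2 fold changes, AD/KO over AD, were negative for 44 of 51 members (52.8% of all genes), with a median of -1.17 against -0.05 over all genes tested. By type the median was -1.49 for H1 (5 of 5 negative), -0.78 for H2A (8 of 11), -1.94 for H2B (11 of 13), -1.49 for H3 (10 of 10) and -0.57 for H4 (10 of 12). Without AD replicate 2 the sign turned: 43 of 52 members were positive (52.4% of all genes), with a median of 0.49 against 0.06 over all genes. The type medians were then 0.17 for H1, 0.64 for H2A, 0.19 for H2B, 0.67 for H3 and 0.73 for H4. That fit called 524 of 22970 genes (2.28%) and 0 members.

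Without AD replicate 1, leaving AD replicate 2 as the only AD library and its spread assumed like that of AD/KO, edgeR called 48 genes (0.208%, and 0.186% lower in AD/KO) and 3 of 54 members, all lower in AD/KO. These were H3c3 (log2 fold change -3.60, adjusted p = 0.00735), H1f5 (-3.50, adjusted p = 0.0138) and H2ac10 (-4.13, adjusted p = 0.0457). The groups did not overlap, with both AD/KO libraries below both AD libraries, for 7 of 51 members (21.7% of all genes): H1f1, H2ac20, H2ac10, H2bc14, H2bc12, H3c3 and H4c17. None had both AD/KO libraries above both AD libraries (20.3% of all genes). The share of members with separated groups was below that of all genes.

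**Figure D3:**
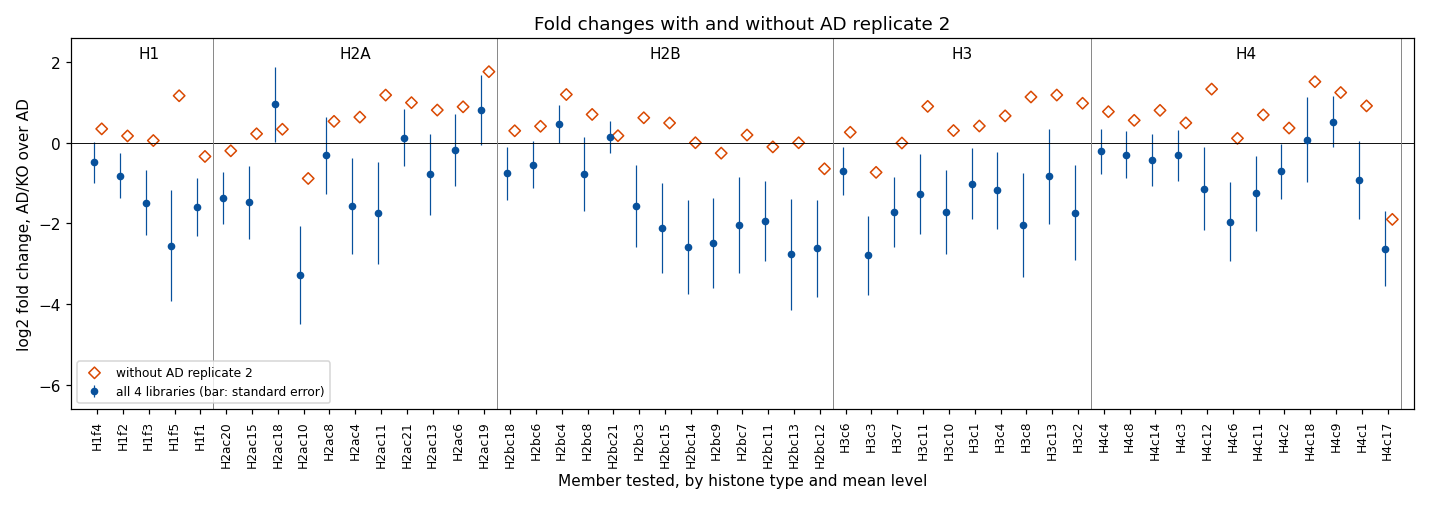
Log2 fold change of each tested member, AD/KO over AD, with its standard error, beside the value without AD replicate 2. Most members lie below 0 with all 4 libraries and above 0 without AD replicate 2.

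Setting AD replicate 2 aside, AD/KO replicate 1 held more histone RNA than AD replicate 1, and AD/KO replicate 2 held 1.03-fold as much as AD replicate 1 in sum. The mean of the AD/KO libraries was above AD replicate 1 for 39 of 51 members (48.7% of all genes). AD/KO replicate 1 was above AD replicate 1 for 43 of 51 members, or 84.3% (50.5% of all genes). AD/KO replicate 2 was above AD replicate 1 for 18 of 51, or 35.3% (48.0% of all genes). Both AD/KO libraries lay below AD replicate 1 for 7 of 51 members, or 13.7%, against 42.8% of all genes. The 2 AD/KO libraries themselves differed, with replicate 1 above replicate 2 for 41 of 51 members (50.9% of all genes). That order depends on the scaling: scaled to the summed counts of 20 homeostatic microglia genes, the members' sum in AD/KO replicates 1 and 2 was 1.52-fold and 2.82-fold that of AD replicate 1, and in AD replicate 2 4.88-fold.

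Among the linker histones, H1f2 and H1f4 carried most of the RNA. H1f2 (gene ID 50708, chr13:23738807-23739531), without a near-identical copy, had 45.2 and 125 CPM in AD and 56.7 and 40.5 in AD/KO, means of 85.3 ± 56.7 and 48.6 ± 11.4 (SD, n = 2). Its log2 fold change was -0.81 (SE 0.55, edgeR adjusted p = 0.680) and 0.17 without AD replicate 2. H1f4 had 47.5 and 114 CPM in AD and 69.0 and 46.3 in AD/KO, for a log2 difference of -0.48 (SE 0.51) and 0.35 without that library. For both genes AD replicate 1 lay between the AD/KO libraries or close to them.

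H1f5 (gene ID 56702, chr13:21779832-21780625) had the largest excess in AD replicate 2 of the H1 genes. It had 1.16 and 28.2 CPM in AD and 2.29 and 2.71 in AD/KO, from 16, 458, 44 and 50 counts. AD replicate 2 was 24.2-fold above AD replicate 1, and the AD/KO libraries were both above AD replicate 1. The log2 fold change was -2.55 (SE 1.38) with all libraries and 1.17 without AD replicate 2. H1f3 had 9.65 and 44.0 CPM in AD and 12.6 and 6.51 in AD/KO, with log2 fold changes of -1.49 and 0.06. H1f1, named after its values were seen, had 3.41 and 12.1 CPM in AD and 2.50 and 2.66 in AD/KO, and stayed negative without AD replicate 2, at -0.34.

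In H2A the members split in direction more than in H1 or H3. H2ac20 (gene ID 319176, chr3:96220413-96220880) had 6.31 and 20.8 CPM in AD and 5.27 and 5.26 in AD/KO, giving a log2 ratio of -1.37 (SE 0.65) and -0.20 without AD replicate 2. H2ac15 had 3.70 and 19.2 CPM in AD and 5.63 and 2.605 in AD/KO, with log2 fold changes of -1.47 and, without AD replicate 2, 0.22. H2ac10 (gene ID 319173, chr13:23533875-23534378) had 1.23 and 11.2 CPM in AD and 0.886 and 0.380 in AD/KO. H2ac10's fold change was -3.28 on the log2 scale (SE 1.22), the most negative of the tested members, and -0.88 without AD replicate 2. Its groups did not overlap, although AD replicate 1 was near the AD/KO libraries.

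H2ac18 (gene ID 15267, chr3:96245497-96246052) ran the other way. It had 5.37 and 1.29 CPM in AD and 9.85 and 3.04 in AD/KO, from 74, 21, 189 and 56 counts, so AD replicate 2 was its lowest library. The log2 fold change was 0.96 (SE 0.93, edgeR adjusted p = 0.721), 0.34 without AD replicate 2 and -0.08 without AD/KO replicate 1. H2ac19, its neighbour, named after its values were seen, matches it at 100% over 528 bases, so their reads cannot be told apart. H2ac18 also matches Gm20633 at 100% over 586 bases and Gm20634 at 100% over 529, and the sum of the pair leaves these genes out. The pair summed to 5.81 and 2.46 CPM in AD and 11.9 and 3.80 in AD/KO. The groups of the pair overlapped.

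For 11 of 13 tested H2B genes the highest library was AD replicate 2. H2bc18 had 10.2 and 30.2 CPM in AD and 16.1 and 7.92 in AD/KO, and H2bc6 had 10.2 and 27.7 CPM in AD and 15.8 and 10.1 in AD/KO. H2bc8 had 3.99 and 17.1 CPM in AD and 9.49 and 2.88 in AD/KO. Their log2 fold changes were -0.75, -0.55 and -0.77, and 0.30, 0.41 and 0.70 without AD replicate 2. H2bc14, named after its values were seen, was a sharper case, with 0.944 and 9.90 CPM in AD and 0.938 and 0.868 in AD/KO, so that 3 libraries were alike and AD replicate 2 was high. Its log2 fold change was -2.58, and 0.0017 without AD replicate 2.

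The 2 exceptions in H2B, both highest in AD/KO replicate 2, are also those without a stem-loop in a transcript that runs well past the stop codon. The other tested members not highest in AD replicate 2 all have a stem-loop. Of these H4c9, named after its values were seen, was highest in AD/KO replicate 2, and H2ac18, H2ac19 and H4c18 in AD/KO replicate 1. H2bc4 (gene ID 68024, chr13:23684199-23692480) had 7.91 and 17.2 CPM in AD and 15.7 and 19.05 in AD/KO, with a fitted log2 change of 0.47 (SE 0.48, edgeR adjusted p = 0.730) and 1.20 without AD replicate 2. H2bc21 (gene ID 319190, chr3:96221072-96223738), named after its values were seen, was level across libraries, with 7.98 and 7.68 CPM in AD and 7.51 and 9.77 in AD/KO and a log2 fold change of 0.14 (SE 0.39, adjusted p = 0.891) that was 0.18 without AD replicate 2.

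H2A and H2B genes often share a promoter region, read in opposite directions, and 8 such pairs were measured with starts 164 to 249 bases apart. AD replicate 2 was the highest library for both genes in 6 of 8 pairs. The exceptions were H2ac20 with H2bc21, 192 bases apart, and H2ac6 with H2bc4, 240 bases apart, named after their values were seen. In both, AD replicate 2 was highest for the H2A gene and not for the H2B gene; H2ac6 had 0.653 and 1.97 CPM in AD and 1.72 and 0.597 in AD/KO. Over the pairs, the median log2 ratio of AD replicate 2 to the mean of the other 3 libraries was 1.15 for the H2A genes (0.73 to 2.32) and 2.24 for the H2B genes (-0.12 to 2.88). These ratios carry the pseudocount of 0.5 CPM, which shrinks those of genes near that level. The H2A genes include H2ac7 and H2ac12, at 0.10 to 1.35 CPM, which did not pass the filter on low counts.

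**Figure D4:**
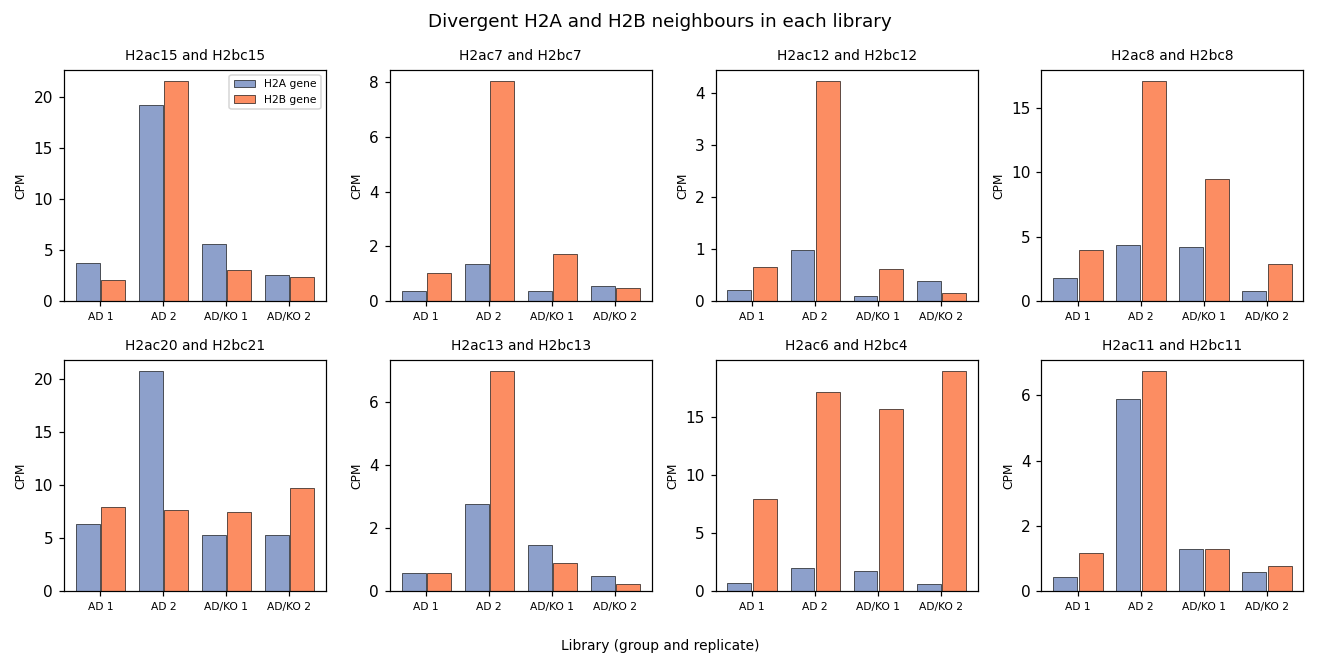
CPM of the H2A and the H2B gene of each divergent pair, 1 bar per gene and library, each panel with its own axis from 0. In 6 of 8 pairs AD replicate 2 is highest for both genes. H2bc21 and H2bc4 are highest in AD/KO replicate 2, and H2bc4, unlike H2bc21, is higher in AD replicate 2 than in AD replicate 1.

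All 10 tested H3 genes were highest in AD replicate 2. H3c3 (gene ID 319148, chr13:23745042-23745521) had 4.57 and 31.7 CPM in AD and 2.97 and 2.28 in AD/KO, means of 18.1 ± 19.2 and 2.63 ± 0.490 (SD, n = 2). Its log2 fold change was -2.79 (SE 0.98, edgeR adjusted p = 0.680) and -0.73 without AD replicate 2, so it kept its sign. H3c6 had 8.64 and 23.4 CPM in AD and 11.9 and 7.87 in AD/KO, and its near copy H3c7, 98.8% identical over 833 bases, had 4.06 and 21.3 CPM in AD and 4.90 and 2.82 in AD/KO. Their log2 fold changes were -0.70 and -1.71, and 0.26 and -0.0057 without AD replicate 2. Summed, H3c6 and H3c7 held 12.7 and 44.6 CPM in AD and 16.8 and 10.7 in AD/KO. H3c11 had 1.38 and 10.5 CPM in AD and 2.50 and 2.44 in AD/KO, for a log2 difference of -1.27 that became 0.90 without AD replicate 2.

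The H3 genes encode 2 proteins, H3.1 and H3.2, that differ at a single residue. The 4 genes for H3.1 summed to 4.57 and 31.4 CPM in AD and 8.03 and 5.43 in AD/KO, with AD replicate 2 6.87-fold above AD replicate 1. The 7 genes for H3.2 summed to 19.2 and 90.5 CPM in AD and 25.02 and 15.6 in AD/KO, a ratio of 4.70-fold. Both forms were highest in AD replicate 2, and H3.2 was the more abundant in every library.

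H4 held the member with the highest level per RefSeq gene length. H4c4 (gene ID 319156, chr13:23581568-23581969), without a near-identical copy, averaged 121 CPM per kb of gene over the 4 libraries, with 69.2, 191, 134 and 91.5 in AD replicates 1 and 2 and AD/KO replicates 1 and 2. H1f2 and H1f4 followed at 92.4 and 88.4 CPM per kb, and H4c8 and H4c14 at 54.4 and 50.3. The library ranges of these neighbours overlap, so their order is a description. It also rests on RefSeq lengths of 402 bases for H4c4, 725 for H1f2 and 782 for H1f4. Their GENCODE transcripts run up to 822, 880 and 1209 bases past the stop codon, and the order by those lengths was not tested. Before scaling by length, H4c4 had 27.8 and 76.9 CPM in AD and 53.8 and 36.8 in AD/KO, giving a log2 ratio of -0.21 (SE 0.55, edgeR adjusted p = 0.886) and 0.77 without AD replicate 2.

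H4c8 had 15.2 and 36.9 CPM in AD and 28.05 and 14.5 in AD/KO, H4c14 had 9.87 and 34.4 in AD and 19.1 and 13.8 in AD/KO, and H4c3 had 8.64 and 20.1 in AD and 16.2 and 7.0004 in AD/KO. Their log2 fold changes were -0.29, -0.43 and -0.31, and 0.56, 0.80 and 0.49 without AD replicate 2. H4c17 (gene ID 100041230, chr13:21811746-21812150) differed, with 2.83 and 6.15 CPM in AD and 0.261 and 1.19 in AD/KO, with a fitted log2 change of -2.62 (SE 0.93) and -1.90 without AD replicate 2. H4c18 is 99.751% identical to it over 402 bases, so the split of reads between them is uncertain: H4c18, named after its values were seen, had 1.38 and 5.72 CPM in AD and 6.26 and 1.25 in AD/KO. Summed, the pair held 4.21 and 11.9 CPM in AD and 6.52 and 2.44 in AD/KO, a log2 ratio of -0.84 with overlapping groups, and 0.09 against AD replicate 1 alone.

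The excess in AD replicate 2 was larger for members whose annotated transcript ends near the stop codon. The line was set at 150 bases after seeing values. The 34 members ending within it summed to 85.2 and 415 CPM in AD, a ratio of 4.87-fold, and to 132 and 78.3 in AD/KO. The 20 members ending beyond it summed to 201 and 575 CPM in AD, a ratio of 2.86-fold, and to 311 and 216 in AD/KO. The median log2 ratio of AD replicate 2 to AD replicate 1 was 2.29 in the first class and 1.45 in the second, and 2.34 and 1.42 with the line at 100 bases. The first class was also the less abundant, with a median level of 3.29 against 8.36 CPM, and the part of that in the ratio was not tested.

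The clusters differed in the same ratio. AD replicate 2 was 7.34-fold above AD replicate 1 in the proximal cluster of chromosome 13, 3.199-fold in the distal cluster and 2.45-fold on chromosome 3. It was at least 2-fold above each other library for 13 of 16, 16 of 27 and 1 of 8 tested members. The chromosome 3 cluster, which holds H2ac18, H2ac19 and H2bc21, thus followed least, as a description of these libraries.

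Because members of every type were high in the same library, promoter letters were compared between types. Of 54 members, 49 matched a RefSeq promoter (GRCm38.p6, 250 bases before to 50 after the start). Words were searched on both strands, none contains another, and shares are given beside those of all 32851 promoters of the same length. TATAAA was in 30 of 49 members (13.6% of all promoters) and CCAAT in 41 of 49 (37.4%). CCAAT was in all 38 H1, H2A, H2B and H3 promoters matched and in 3 of 11 for H4. GGTCCG was in 10 of 11 H4 promoters (8.25%), AAACACA in 4 of 5 H1 promoters (7.18%), and the octamer ATTTGCAT in 5 of 13 H2A and 5 of 11 H2B promoters (1.74%). A match is a description of letters, not a bound site.

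Promoters are shown for H1f5 and H2bc14, low in 3 libraries and high in AD replicate 2, and for H4c4, the most abundant per RefSeq length. The last is that of H2ac18, lowest in AD replicate 2. Capitals mark the words searched above, on either strand. They lie at chr13:21780576-21780875 on the minus strand, chr13:21721794-21722093, chr13:23581318-23581617 and chr3:96245247-96245546 on the plus strand.
H1f5: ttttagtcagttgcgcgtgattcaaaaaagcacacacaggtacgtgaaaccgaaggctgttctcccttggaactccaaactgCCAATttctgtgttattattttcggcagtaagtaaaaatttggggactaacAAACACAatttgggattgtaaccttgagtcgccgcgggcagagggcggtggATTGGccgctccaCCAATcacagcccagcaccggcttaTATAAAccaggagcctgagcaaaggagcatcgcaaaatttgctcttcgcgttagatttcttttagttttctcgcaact
H2bc14: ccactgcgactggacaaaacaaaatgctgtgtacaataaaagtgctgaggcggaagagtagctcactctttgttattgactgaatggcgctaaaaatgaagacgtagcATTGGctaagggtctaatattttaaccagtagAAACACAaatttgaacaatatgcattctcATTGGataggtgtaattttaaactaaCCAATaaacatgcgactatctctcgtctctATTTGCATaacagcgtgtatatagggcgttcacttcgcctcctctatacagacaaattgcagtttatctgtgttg
H4c4: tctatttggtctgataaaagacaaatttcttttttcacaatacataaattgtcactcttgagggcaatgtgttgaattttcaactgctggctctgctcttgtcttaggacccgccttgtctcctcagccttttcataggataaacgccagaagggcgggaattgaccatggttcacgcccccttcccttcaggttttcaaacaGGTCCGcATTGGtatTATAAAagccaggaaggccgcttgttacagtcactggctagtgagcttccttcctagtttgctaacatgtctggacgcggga
H2ac18: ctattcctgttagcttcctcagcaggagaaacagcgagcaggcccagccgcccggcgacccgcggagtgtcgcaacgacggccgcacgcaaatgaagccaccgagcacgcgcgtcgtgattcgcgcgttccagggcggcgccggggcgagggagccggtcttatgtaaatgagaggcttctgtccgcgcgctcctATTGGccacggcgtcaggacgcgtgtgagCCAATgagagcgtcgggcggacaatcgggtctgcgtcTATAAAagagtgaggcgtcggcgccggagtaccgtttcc

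For 22 of 25 mitosis genes, which act in cell division, the groups did not overlap and AD/KO was the lower (21.7% of all genes). All 25 had a negative log2 fold change (52.8% of all genes), with a median log2 fold change of -2.06 (-0.05 over all genes). An unadjusted edgeR p under 0.05 was found for 14 (5% of all genes), and 0 passed after adjustment. Mki67, the standard marker of cycling cells, had 45.6 and 145 CPM in AD and 12.6 and 10.3 in AD/KO, for a log2 difference of -3.06 (SE 0.64, edgeR adjusted p = 0.680). Top2a, which untangles chromosomes, had 14.5 and 42.2 CPM in AD and 4.90 and 1.85 in AD/KO. Without AD replicate 2 the log2 fold changes were -1.93 for Mki67 and -2.03 for Top2a. Cenpf, a kinetochore protein, had 30.2 and 46.4 CPM in AD and 7.14 and 4.67 in AD/KO. In these genes each AD/KO library was below each AD library.

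The list kept its sign without AD replicate 2, with a median of -1.21, whereas that of the histone members became 0.49. Both AD/KO libraries lay below AD replicate 1 for 22 of 25 mitosis genes and 21 of 34 S-phase genes, against 7 of 51 histone members. Over all genes tested the share was 42.8%. The 34 S-phase genes, which copy and license DNA, had a median of -0.68, and -0.51 without AD replicate 2. Of these, 30 were negative (52.8% of all genes), 6 had an unadjusted edgeR p under 0.05 (5%) and 0 were called. For 21 of 34 the groups did not overlap and AD/KO was the lower (21.7%). Mcm3, of the replicative helicase, had 44.3 and 33.9 CPM in AD and 33.5 and 13.5 in AD/KO, and Lig1, which joins replicated strands, had 19.9 and 28.7 in AD and 19.967 and 31.3 in AD/KO. AD replicate 2 was the highest library for neither Mcm3 nor Lig1. It was the highest for 22 of 34 S-phase genes and 25 of 25 mitosis genes (14.2% of all genes). For 5 S-phase and 17 mitosis genes it was at least 2-fold above each other library (1.96% of all genes). The difference between the lists was not tested.

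**Figure D5:**
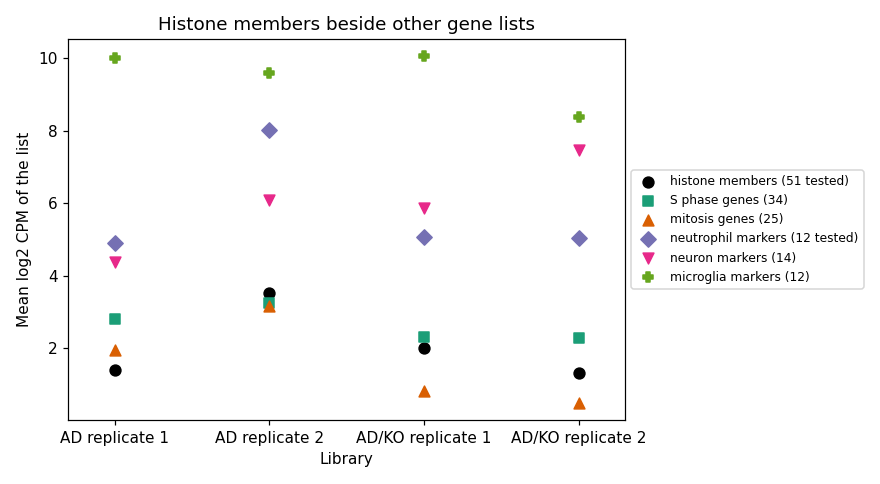
Mean log2 CPM of the histone members and 5 other gene lists in each library, 1 point per list. The histone members stand at 3.52 in AD replicate 2 and at 1.33 to 2.02 in the other libraries, and the mitosis genes are higher in both AD libraries than in both AD/KO libraries.

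No gene that processes histone messages or carries histones passed the test. Of 22 processing factors 15 were lower and 7 higher, with a median of -0.18 (-0.15 without AD replicate 2) and 0 at an unadjusted p under 0.05. Slbp, which binds the stem-loop, had 19.9 and 18.3 CPM in AD and 15.01 and 8.14 in AD/KO, giving a log2 ratio of -0.72 (SE 0.42, edgeR adjusted p = 0.680). In AD replicate 2 Slbp was below AD replicate 1 and above both AD/KO libraries. Npat, the activator of histone genes, had 36.7 and 39.9 CPM in AD and 31.9 and 26.0 in AD/KO. The most abundant factors were higher in AD/KO on average without passing: Sympk, a scaffold of the 3′ end cleavage complex, at a log2 fold change of 0.54 (0.81 without AD replicate 2) and Srrt at 0.35 (0.42). Of 23 histone chaperones and assembly factors 14 were lower and 9 higher, with a median of -0.07 (0.06 without AD replicate 2), 2 at an unadjusted p under 0.05 and 0 called. Cabin1, of the H3.3 assembly complex, stood at 0.31 (0.40 without AD replicate 2) and Atrx, which places H3.3 in heterochromatin, at -0.26 (-0.16).

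Replacement variants, histones made outside S phase from polyadenylated messages, had a smaller excess in AD replicate 2 in sum. Gene by gene, AD replicate 2 was above AD replicate 1 for 10 of 11 (51.3% of all genes). It was the highest library for 5 of 11 (14.2% of all genes). The 11 genes summed to 457 and 535 CPM in AD and 469.7 and 411 in AD/KO, with 6 negative, 5 positive and 0 called; the median log2 fold change was -0.20, and 0.51 without AD replicate 2. H3f3b, for H3.3, had 116 and 146 CPM in AD and 127 and 91.3 in AD/KO, and Macroh2a1 had 196 and 159 in AD and 167 and 111 in AD/KO. H2ax, which has both a stem-loop and a polyadenylated form, was highest in AD replicate 2, with 5.01 and 28.6 CPM in AD and 8.29 and 10.7 in AD/KO. Macroh2a2 and H1f10 also stood higher in AD replicate 2 than in AD replicate 1, at 1.52 and 6.64 CPM and at 1.09 and 3.63 CPM, and were highest in AD/KO replicate 2, at 14.5 and 6.24 CPM. These 3 were named after their values were seen.

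Neutrophil markers were high in the library that stood apart. The 14 neutrophil markers summed to 1403 and 5773 CPM in AD and 1240 and 872 in AD/KO, and 11 of the 12 tested were at least 2-fold higher in AD replicate 2 than in each other library. The list also holds granule genes of neutrophil precursors, named after their values were seen: Mpo had 0.44 and 20.2 CPM in AD and 0.73 and 0.16 in AD/KO, and Elane had 0.15 and 11.003 in AD and 0.21 and 0.11 in AD/KO. The 10 markers of monocytes and border macrophages summed to 196 and 474 CPM in AD and 101 and 95.3 in AD/KO. AD replicate 2 was highest for 5 of 10 (14.2% of all genes) and at least 2-fold above each other library for 2 (1.96%). For 8 of 10 the groups did not overlap and AD/KO was the lower (21.7%). Their median log2 fold change was -1.60, and -0.80 without AD replicate 2. The part of these 2 marker lists in the histone result was not tested. In bulk RNA, fewer cells of a type and less RNA per cell cannot be told apart.

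Microglia markers were present in every library and lowest in AD/KO replicate 2. The 12 markers summed to 18598 and 13200 CPM in AD and 19747 and 5927 in AD/KO. In sum over each list, the 14 neuron markers ran from 684 to 5356 CPM, the 12 astrocyte markers from 1897 to 11889 and the 10 oligodendrocyte markers from 1670 to 8695, each lowest in AD replicate 1 and highest in AD/KO replicate 2. The 7 erythroid markers ran from 437 to 1994 CPM and the 12 endothelial and mural markers from 59.4 to 139. The 10 lymphocyte markers ran from 4.99 to 13.6 CPM, with the T and natural killer cell genes Cd3e, Trbc2 and Ncr1 at 3 counts or fewer in every library. Their part in the lower histone level of AD/KO replicate 2 than AD/KO replicate 1 was not tested.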

How the data were processed

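The 4 libraries (2 AD, 2 AD/KO) were deposited by the authors as whole-number counts per gene symbol. Per the submitters' processing notes FastQC, HISAT2, SAMtools, featureCounts, Subread and DESeq2 1.30.0 were named, with the build mm10; strand and multi-mapping settings are not given in the sources used here. Each file held 11 broken lines, which left out Bag6, Huwe1, Mycbp2 and Neb. Groups came from the labels. Counts were fitted with edgeR 4.0.16 (R 4.3.3) by its quasi-likelihood test, after filterByExpr (minimum count 10, minimum total 15) and TMM scaling, with Benjamini-Hochberg adjustment over all genes tested and a threshold of 0.05; printed CPM are TMM-scaled, and their precision is set by counting error and, mostly, by the spread between libraries (biological coefficient of variation 44.5%). DESeq2 1.42.0, other scalings and filters, a replicate block and leaving out each library were alternatives. Near-identical copies were found with BLAST 2.17.0. Library ratios used a pseudocount of 0.5 CPM. The fit was tested on simulated data. Named members are the 4 most abundant tested members of each type and, among members whose groups do not overlap, the 3 largest rises and falls; from each other list the 2 most abundant genes, with Slbp, Npat, Mki67 and Top2a always; lists of cell type markers are given mainly as sums. The members and lists were chosen with earlier results of these data known.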

Additional observations from a re-analysis of the deposited data

How the results depend on the processing

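The counts of called genes moved most: 0 genes and 0 members with all libraries, 91 genes with DESeq2, and 0 to 524 genes and 0 to 3 members when each library was left out in turn. With the replicate number as a block, 4333 genes passed (20.2%, with 6.79% lower and 13.4% higher in AD/KO). The 1 member among them was H4c17 (log2 fold change -2.76, edgeR adjusted p = 0.00983). So did 16 of 25 mitosis and 11 of 34 S-phase genes (Mki67 edgeR adjusted p = 0.00537, Top2a 0.0177). Of the neuron markers 14 of 14 passed, and of the astrocyte markers 11 of 12. In each other list 4 genes or fewer passed. Deviations of same-numbered libraries correlated at 0.68 over all genes and 0.056 over the members, and the labels do not say that the numbers pair the libraries. Over the leave-one-out fits the median log2 fold change ran from -2.21 to 0.17 for H1, -1.58 to 0.64 for H2A, -2.71 to 0.19 for H2B, -2.10 to 0.67 for H3 and -1.18 to 0.73 for H4. The log2 ratio of summed CPM ran from -1.42 to 0.18 for H1, -1.55 to 0.25 for H2A, -1.44 to 0.44 for H2B, -2.17 to 0.18 for H3 and -1.16 to 0.61 for H4. In each of these ranges the positive end is the fit without AD replicate 2. Scaling to the homeostatic microglia list moved the median of all genes by 0.59; 43 of 51 members stayed negative, and H4c4 turned to 0.17. Among H2B members without a near-identical gene, only H2bc21, the median was 0.14; the cause was not tested.

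Of the 51 tested members, 35 turned sign without AD replicate 2. Among the members named by rule, those that turned in any leave-one-out fit ranged from -1.38 to 0.17 (H1f2), -2.21 to 0.056 (H1f3), -0.98 to 0.35 (H1f4), -3.50 to 1.17 (H1f5), -2.22 to 0.22 (H2ac15), -0.077 to 2.31 (H2ac18), -1.34 to 0.30 (H2bc18), -1.9e-05 to 1.20 (H2bc4), -1.10 to 0.41 (H2bc6), -1.82 to 0.70 (H2bc8), -2.10 to 0.90 (H3c11), -1.25 to 0.26 (H3c6), -1.07 to 0.80 (H4c14), -0.98 to 0.49 (H4c3), -0.77 to 0.77 (H4c4) and -0.80 to 0.56 (H4c8). H4c3, H4c4 and H4c8 also turned without AD/KO replicate 2, to 0.18, 0.05 and 0.12. The other alternatives, other size factors, other filters, members of at least 100 counts and members with a stem-loop, kept the direction of every type. With 2 libraries a group and 10 counts at 0.521 to 0.726 CPM, members of a few CPM allow no firm statement.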
